A study of Mus musculus with 10 samples.

Results

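Cones are the photoreceptors of daylight and colour vision, and the 10 genes described here encode the protein chain by which a mouse cone turns light into an electrical signal. They were taken by gene symbol from the table of normalized values of mouse retina: Opn1sw, Opn1mw, Arr3, Gnat2, Gngt2, Gnb3, Pde6c, Pde6h, Cnga3 and Cngb3. All 10 were found among the 25905 genes listed, and all 10 passed the filter that left 14210 genes for testing. They were chosen by name and role, with earlier results of these data known.

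In a cone, a photon isomerises the retinal bound to an opsin, the opsin activates the heterotrimeric G protein transducin, and transducin relieves the inhibition of a cyclic GMP phosphodiesterase. Cyclic GMP then falls, the cyclic nucleotide-gated channel closes and the cell hyperpolarises, until arrestin and other proteins end the response. Rods use the same chain with a different gene at nearly every step, and most mouse cones make both the short-wave and the middle-wave opsin in amounts that vary from the dorsal to the ventral retina.

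The mice were wild-type C57BL/6J, and their retinas were taken on postnatal day 34. Each mouse had worn a lens of −20 dioptres over one eye for 10 days from postnatal day 24, a treatment that makes the growing eye myopic, and its other eye had no lens. Left and right retinas of 5 mice, numbered 61, 64, 65, 66 and 68, gave 10 libraries of total RNA depleted of ribosomal RNA. The sources used here give the side of each retina and not the eye that wore the lens, so the groups are left retina (n = 5) and right retina (n = 5), lens and side cannot be told apart, and no retina is called treated or control.

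Values are CPM (counts scaled to library size), not divided by gene length. By the step between low values, 1 CPM stood for 89.7 to 113.8 counts. The listed genes of a library held 29692900 to 37261900 counts and summed to 321661 to 346696 CPM. The rest of the total to which values were scaled lay outside the listed genes. The cone genes rested on 504 to 12158 counts per library, which leaves a counting error of at most 4.45% of a value, for Cnga3. Summed over the cone genes, the level was 331 to 431 CPM on the left and 307 to 389 CPM on the right. Rod markers summed to 6014 to 6684 CPM and 5 other cone-enriched genes to 73.7 to 81.2 CPM, so the libraries carried the markers of the labelled tissue. The right retina of mouse 65 held lens transcripts, with a marker sum of 762 CPM against 6.92 to 107 CPM in the other libraries. The left retina of mouse 68 held skeletal muscle transcripts, with a sum of 239.8 CPM against 26.3 to 31.9 CPM elsewhere. Per the labels, the raw read files of the right retina of mouse 64 were damaged, with reads missing from one file of the pair. A whole retina is a bulk sample, in which fewer cones and less RNA per cone cannot be told apart.

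The 250 bases before the transcription start are shown for the 4 genes below because their levels varied together over the 10 libraries and because their letters differ in the motifs of photoreceptor regulators. Sequences are those of RefSeq on GRCm38.p6, printed from 5′ to 3′ on the strand of the gene. The starts are those of RefSeq, and for Opn1sw and Gnat2 they lie inside the longer gene spans of GENCODE M21. Matches to TAATCC or TAATCT, forms of the motif bound by the homeodomain factors CRX and OTX2, and to AGGTCA, the hexamer recognised by many nuclear receptors, are in capitals. Both strands were searched, so that GGATTA for the first motif, AGATTA for the second and TGACCT for the third count as well.
Opn1sw, chr6:29380514-29380763 (minus strand): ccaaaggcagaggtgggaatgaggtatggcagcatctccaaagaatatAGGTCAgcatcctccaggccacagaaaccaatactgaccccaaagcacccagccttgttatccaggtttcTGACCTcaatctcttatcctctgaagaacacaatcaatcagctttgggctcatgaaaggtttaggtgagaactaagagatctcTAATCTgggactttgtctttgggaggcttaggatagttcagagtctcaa
Opn1mw, chrX:74127216-74127465 (plus strand): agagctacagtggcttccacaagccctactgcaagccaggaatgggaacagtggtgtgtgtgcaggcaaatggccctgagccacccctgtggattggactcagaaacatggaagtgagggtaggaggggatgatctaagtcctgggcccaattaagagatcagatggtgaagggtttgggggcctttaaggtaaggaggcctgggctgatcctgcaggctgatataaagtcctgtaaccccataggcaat
Arr3, chrX:100605247-100605496 (plus strand): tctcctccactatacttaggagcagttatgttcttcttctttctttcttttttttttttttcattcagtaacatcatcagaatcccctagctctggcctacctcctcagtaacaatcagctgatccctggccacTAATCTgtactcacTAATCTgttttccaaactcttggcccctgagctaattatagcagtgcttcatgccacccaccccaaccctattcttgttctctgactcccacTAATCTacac
Gnat2, chr3:108092816-108093065 (plus strand): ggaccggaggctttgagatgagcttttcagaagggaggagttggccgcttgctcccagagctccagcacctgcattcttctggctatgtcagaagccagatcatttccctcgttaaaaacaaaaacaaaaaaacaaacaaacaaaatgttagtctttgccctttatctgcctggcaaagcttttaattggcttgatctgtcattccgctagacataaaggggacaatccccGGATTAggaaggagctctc
The Arr3 promoter holds TAATCT 3 times, beginning 116, 102 and 10 bases before the start. The Opn1sw promoter holds TAATCT once, 49 bases before the start, and AGGTCA on either strand at 202 and 132 bases. The Gnat2 promoter holds GGATTA 19 bases before the start, and the Opn1mw window holds none of the 3 motifs. Of 7 promoter windows of 6 cone genes that could be matched (the 4 above, Pde6h once and Cnga3 at both of its starts), 1 held TAATCC, 2 held TAATCT and 1 held AGGTCA. Of all 32851 promoters in the same table, 6.25%, 7.31% and 14% did. Gngt2, Gnb3, Pde6c and Cngb3 were not matched. A match describes letters and not a bound site, and a window without a match says only that these letters are not in it.

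Opn1sw, the short-wave opsin on chromosome 6 (GRCm38, chr6:29376671-29388468, minus strand), was the most abundant of the cone transcripts per kb of exon. It stood at 128.3, 92.5, 87.3, 81.1 and 91.7 CPM in the left retinas of mice 61, 64, 65, 66 and 68, and at 109.1, 81.2, 92.0, 94.8 and 104.1 CPM in the right retinas. The left retina of mouse 61 lay above the rest, and the values of the sides overlapped. The means were 96.2 ± 18.5 CPM in left and 96.2 ± 10.9 CPM in right retinas (SD, n = 5). In the annotation Opn1sw shares 397 exonic bases with Calu, a gene on the opposite strand at a mean of 26.8 CPM. The sources used here do not say whether counting used the strand, so reads from the shared stretch may be split between these genes.

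Opn1mw, the middle-wave opsin on the X chromosome (chrX:74127464-74150760), ran at 30.4, 30.7, 23.7, 24.7 and 26.0 CPM in the left retinas and 29.4, 22.7, 26.5, 27.3 and 26.3 CPM in the right retinas of the same mice in the same order. Both retinas of mouse 61 and the left retina of mouse 64 were high, and the right retina of mouse 64 was lowest. Its means were 27.1 ± 3.26 CPM in left and 26.4 ± 2.45 CPM in right retinas (SD, n = 5).

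Arr3 encodes cone arrestin, which binds the light-activated opsin and stops its signalling (chrX:100605497-100618493). It reached 54.1, 49.2, 41.2, 41.9 and 47.1 CPM in left and 48.3, 39.4, 43.7, 50.1 and 40.7 CPM in right retinas, again in the order of mice 61, 64, 65, 66 and 68. The means of 46.7 ± 5.35 and 44.4 ± 4.67 CPM differed by less than their spread (SD, n = 5).

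Cone transducin is built from the alpha subunit Gnat2, which carries the nucleotide, the beta subunit Gnb3 and the gamma subunit Gngt2. Gnat2 (chr3:108092789-108101432) gave 40.0, 32.1, 33.9, 28.3 and 34.9 CPM in left and 39.0, 28.6, 33.9, 33.6 and 34.5 CPM in right retinas. Gnb3 (chr6:124834240-124840275, minus strand), which ON bipolar cells also use, gave 74.9, 58.3, 55.6, 51.3 and 64.6 CPM in left and 65.2, 47.4, 60.1, 57.3 and 58.5 CPM in right retinas. Gngt2 (chr11:95837216-95845734) gave 19.7, 14.9, 12.7, 13.5 and 15.1 CPM in left and 17.3, 12.5, 15.3, 14.8 and 15.7 CPM in right retinas. The left retina of mouse 61 was the highest library for all 3 subunits. The right retina of mouse 64 was lowest for Gnb3 and Gngt2, whereas the left retina of mouse 66 was lowest for Gnat2. The sides overlapped for each subunit. Gngt2 shares 234 exonic bases with Abi3 on the opposite strand, at a mean of only 0.738 CPM.

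Pde6c is the catalytic subunit of the cone phosphodiesterase and Pde6h its inhibitory gamma subunit. Pde6c (chr19:38132781-38183958) stood at 35.6, 35.9, 38.2, 42.4 and 37.8 CPM in left and 35.1, 36.4, 39.5, 42.2 and 38.6 CPM in right retinas. Its fellow eyes were the closest of all the cone genes, and it was lowest in mouse 61 and highest in mouse 66, in both eyes. Pde6h (chr6:136923832-136968865) stood at 30.3, 28.6, 25.6, 28.9 and 27.3 CPM in left and 27.5, 23.3, 28.7, 31.97 and 28.3 CPM in right retinas. Here the right retina of mouse 64 was lowest and the right retina of mouse 66 highest. It shares 136 exonic bases with Arhgdib on the opposite strand, at a mean of 0.913 CPM.

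Cnga3 and Cngb3 form the cyclic nucleotide-gated channel of the cone outer segment. Cnga3, the pore-forming alpha subunit (chr1:37214434-37263384), had the lowest level of the cone transcripts per kb of exon. It ran from 5.31 CPM in the right retina of mouse 64 to 6.79 CPM in the left retina of mouse 66, with a median of 5.83 CPM. Cngb3, the beta subunit and the longest gene of the set (chr4:19280850-19510623, 229.8 kb), ranged from 10.7 CPM in the right retina of mouse 64 to 12.9 CPM in the right retina of mouse 68, with a median of 11.8 CPM. The channel genes and Pde6c varied least over the 10 libraries. The coefficient of variation was 5.24% for Cngb3 and 6.84% for Pde6c, against 14.9% for Opn1sw and 14.2% for Gngt2.

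**Figure D1:**
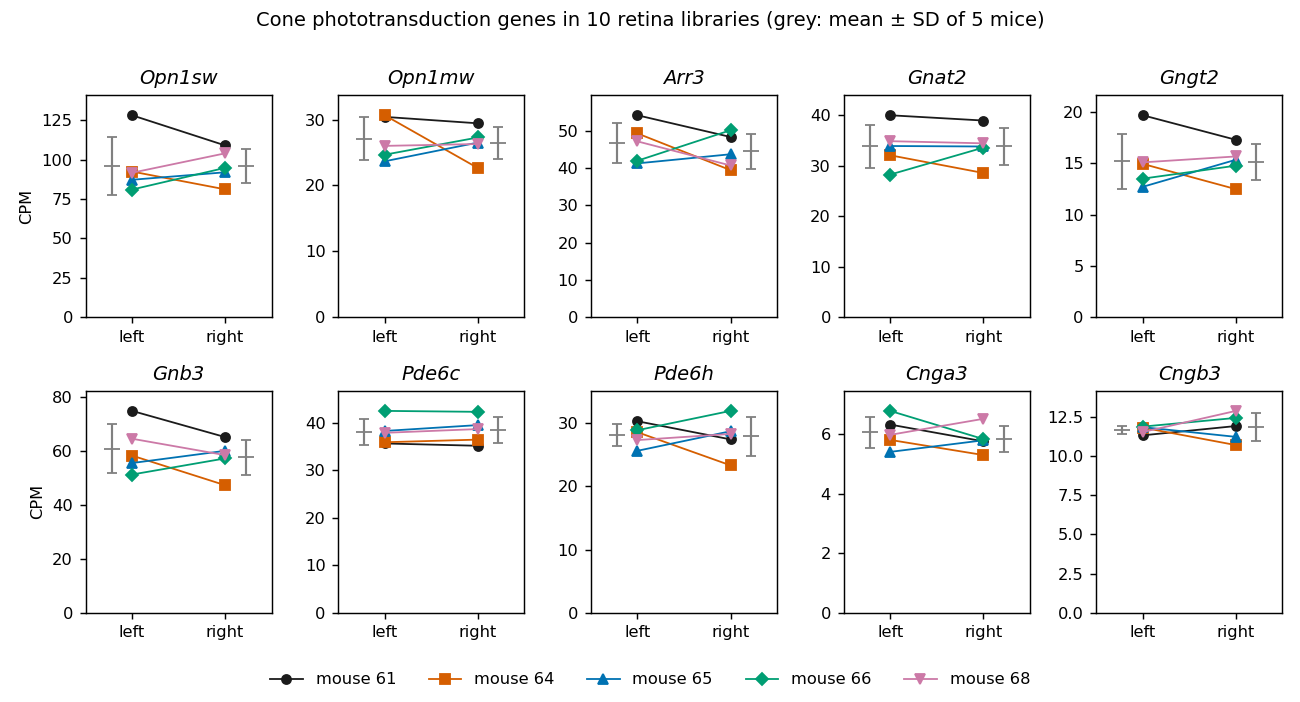
CPM (vertical axes, from 0) of the 10 cone genes in the left and right retina of 5 mice, with lines joining fellow retinas and grey bars for the mean ± SD of 5 mice. Mouse 61 (black) is highest for Opn1sw, Gnat2, Gngt2 and Gnb3, while Pde6c keeps the order of its mice from left to right with mouse 66 highest at 42.4 and 42.2 CPM.

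The order of levels was read after division by the union of annotated exons, in CPM per kb. On that scale Opn1sw led at 37.6 ± 5.59 CPM per kb (SD over 10 libraries), followed by Gnb3 at 22.5 ± 2.93, Arr3 at 19.3 ± 2.07 and Opn1mw at 17.1 ± 1.75 CPM per kb. Pde6c at 12.9 ± 0.88 and Gnat2 at 11.3 ± 1.26 CPM per kb came next. Gngt2 stood at 8.07 ± 1.14, Pde6h at 3.58 ± 0.30, Cngb3 at 2.498 ± 0.131 and Cnga3 at 1.51 ± 0.12 CPM per kb. Of the 9 neighbouring pairs in this order, 8 stood the same way in all 10 libraries. The exception was Pde6c over Gnat2, which held in 8 libraries, so these neighbours do not differ beyond their spread. The order depends in part on the length used. With the longest annotated transcript 7 neighbouring pairs held in every library. With the shortest principal transcript, a length chosen after seeing the data, 7 did as well, Gngt2 moved up to 30.4 ± 4.31 CPM per kb and Cnga3 stood above Cngb3.

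The balance between the opsins, as a ratio of CPM, varied 1.40-fold over the 10 libraries. That was the widest fold range of the 8 ratios between cone genes. Opn1sw made up 68.6% ± 1.998 (SD, n = 10) of cone opsin transcript per kb of exon, with a range of 64.8% to 72.04%. It was 68.2% ± 2.71 in left and 68.9% ± 1.16 in right retinas (SD, n = 5). As a ratio of CPM, Opn1sw to Opn1mw was 3.59 ± 0.33, and per kb of exon it was 2.19 ± 0.20. Per kb of the longest transcript the ratio was 1.84, and of the shortest principal transcript 1.83. The share of Opn1sw thus depends on the length used and is lower with these lengths. The lowest library was the left retina of mouse 64 at 3.02 and the highest the left retina of mouse 61 at 4.22, both as a ratio of CPM.

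Subunits of the same complex kept ratios with a smaller spread than their levels where transducin was concerned. The ratio of Gnat2 to Gnb3 was 0.573 ± 0.03 in CPM (SD, n = 10; range 0.534 to 0.611), and 0.503 per kb of exon. The ratio of Gnb3 to Gngt2 was 3.93 ± 0.22 in CPM, and 2.80 per kb. These ratios varied 1.14-fold and 1.17-fold from the lowest to the highest library, while the level of Gnb3 alone varied 1.58-fold. The third transducin ratio, Gnat2 to Gngt2, was 2.25 ± 0.17 in CPM and varied 1.31-fold. Opn1mw to Arr3, which do not form such a complex, varied 1.19-fold, so a narrow ratio was not particular to transducin. Pde6c to Pde6h was 1.37 ± 0.12 in CPM and varied 1.33-fold, more than Pde6c itself at 1.21-fold. Cnga3 to Cngb3 was 0.507 ± 0.04 in CPM and 0.603 per kb, but 1.15 per kb of the shortest principal transcript, so which channel subunit is the more abundant per length is not settled here.

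The 8 cone genes other than the opsins were also set against the rod gene of the same step. In CPM, which longer transcripts raise, Gnat2 was 1.53% of Gnat1, the rod transducin alpha subunit. Arr3 was 3.95% of Sag, the rod arrestin. Gngt2 was 5.66% of Gngt1, the rod gamma subunit, and Gnb3 was 6.18% of Gnb1, a beta subunit that rods share with many cell types. Pde6c was 5.81% of Pde6b, a catalytic rod subunit, and Pde6h was 8.71% of Pde6g, the rod inhibitory subunit. Cnga3 was 4.57% of Cnga1 and Cngb3 was 5.93% of Cngb1, the rod channel subunits. Per kb of exon these shares ran from 1.55% for Gnat2 to 14.9% for Arr3, but the share of Arr3 was 5.00% with principal transcripts. The rod transcript was the higher of the pair in every library.

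**Figure D2:**
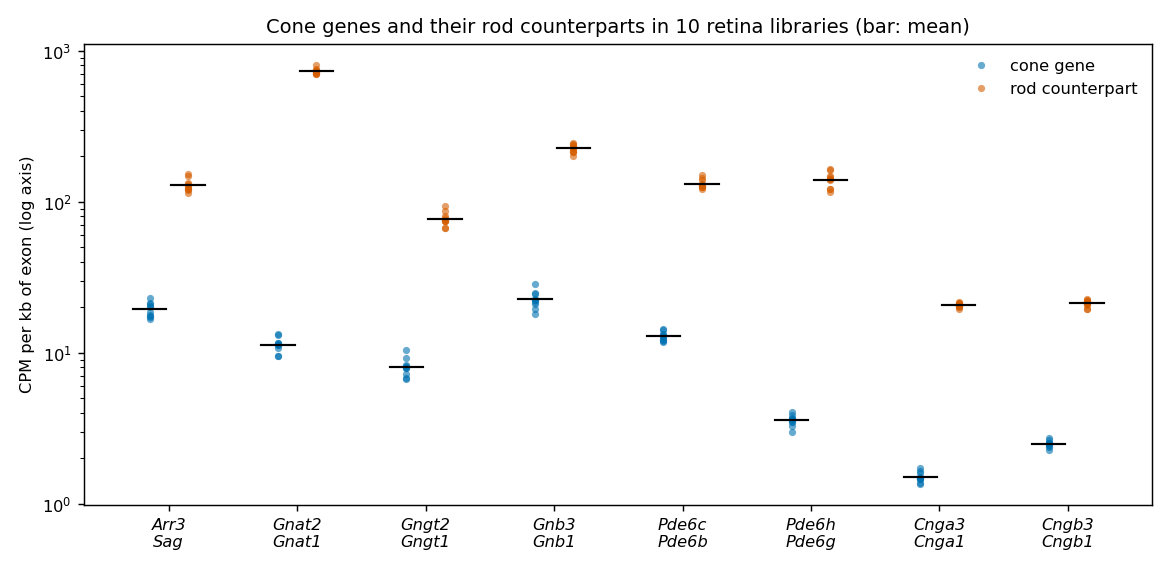
CPM per kb of exon (logarithmic vertical axis) of 8 cone genes (blue), each beside its rod counterpart (orange), with a point for each of the 10 libraries and a bar for the mean. Every rod counterpart lies above its cone gene, from Gnb1 over Gnb3 at 22.5 CPM per kb to Cnga1 over Cnga3 at 1.51 CPM per kb.

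The question the design puts to these genes is whether their transcripts differ between fellow retinas, one of which had a lens before it. With the lens eye unknown, only right against left was tested. If the lens side varied between mice, a difference made by the lens could cancel in the mean, so the result below does not bear on the lens. For none of the 10 cone genes was the mean difference between right and left large enough to be called, given the spread of the within-mouse differences. By limma on log2(CPM + 1) with the mouse as a block, 0 of 10 passed a Benjamini-Hochberg adjusted p of 0.05, with 0% of the 14210 tested genes called, and limma-voom on implied counts also called 0. Unadjusted, 0 of 10 cone genes and 333 of all tested genes fell under 0.05. The estimates were higher on the right for 5 genes and lower for 5. They ran from −0.07 for Gnb3 (95% interval −0.22 to 0.07) and Arr3 (−0.23 to 0.09) to 0.01 for Cngb3 (−0.10 to 0.13), all at an adjusted p of 0.9996 by limma. The intervals for the 10 genes lay within −0.23 and 0.16 on the log2 scale. Opn1sw was at 0.01 (−0.14 to 0.16), Opn1mw at −0.03 (−0.20 to 0.14) and Gnat2 at 0.00 (−0.11 to 0.12).

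The median difference was −0.01 over the cone genes and 0.00 over all tested genes. Single mice moved more than the means, and their cone genes moved together. In mouse 61 and in mouse 64, 9 of 10 cone genes were lower in the right retina, with median differences of −0.13 and −0.21. In mouse 65 and mouse 66, 8 of 10 were higher on the right, with medians of 0.08 and 0.14, and in mouse 68 it was 7 of 10, with a median of 0.04. Of all tested genes, the share that was higher on the right was 38.0%, 44.1%, 62.7%, 60.4% and 47.1% in mice 61, 64, 65, 66 and 68. Whichever the side, fellow retinas differed in Opn1mw by a root mean square of 0.21, in Arr3 by 0.22 and in Gnb3 and Opn1sw by 0.19 on the log2 scale. Pde6c was the exception at 0.03. The median over the cone genes was 0.18 and that over all tested genes 0.13. Without mouse 64, whose right library came from damaged read files, the right minus left difference of Opn1mw turned from −0.03 to 0.07 and that of Pde6h from −0.01 to 0.05, and no cone gene passed. Without mice 65 and 68, in which a retina held lens or muscle transcripts, the estimates for the other 3 mice ran from −0.14 for Cnga3 to 0.01 for Gnat2, and again no cone gene passed.

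**Figure D3:**
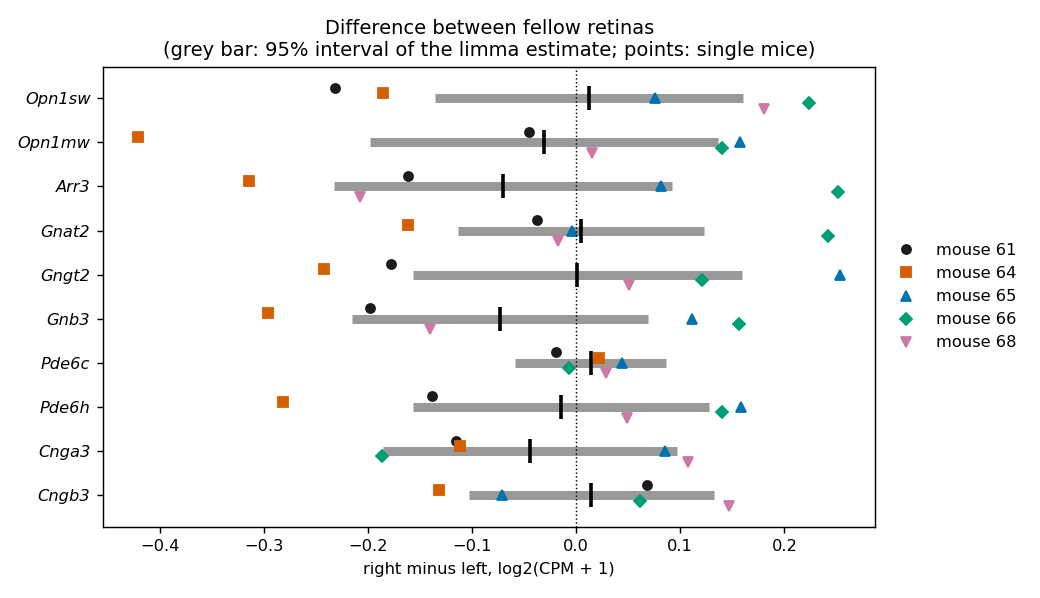
Right minus left difference in log2(CPM + 1) (horizontal axis) of each cone gene, with points for single mice, a black tick for the limma estimate and a grey bar for its 95% interval. Every bar spans 0, and mouse 64 (orange squares) is lower on the right for 9 of 10 genes, down to −0.42 for Opn1mw.

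Ratios between genes within a library were tested with an exact sign-flip permutation test of the 5 differences, two-sided, whose smallest possible p with 5 pairs is 0.0625, so that no ratio could pass at 0.05. Of 16 ratios, 8 between cone genes and 8 between cone and rod genes, none had an adjusted p under 0.923. The log2 ratio of Opn1sw to Opn1mw differed by 0.04 ± 0.18 between right and left (SD, n = 5; exact permutation p = 0.688, adjusted 0.923). Gnb3 to Gnb1 was the only ratio with the same sign in all 5 mice. It was 7.79%, 6.00%, 6.13%, 6.02% and 6.39% in left and 7.07%, 5.20%, 5.73%, 5.76% and 5.69% in right retinas in mice 61, 64, 65, 66 and 68. The right was lower in 5 of 5 mice by a mean log2 difference of −0.14 (SE 0.03; exact permutation p = 0.0625, adjusted 0.923), and the sides overlapped. The widest ratio was Gngt2 to Gngt1, from 3.86% to 7.48%, with a log2 difference of 0.60 in mouse 65 and −0.41 in mouse 64.

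Differences between mice were set against the spread between fellow eyes by limma's moderated F-test. No cone gene passed over all genes, with 0 of 10 called against 0.57% of tested genes (81 of 14210), and limma-voom also called 0. Without mouse 61, 66 or 68 the count over all genes was 23, 53 or 39. At an unadjusted p under 0.05 there were 5 of 10 cone genes, against 13.8% of all tested genes. These 5 were Pde6c (adjusted p = 0.215 by limma), Gnat2, Opn1sw, Gnb3 and Gngt2. The mouse means of Opn1sw spanned 0.44, of Gngt2 0.41, of Gnb3 0.40 and of Gnat2 0.37 on the log2 scale, with mouse 61 highest in each. Without mouse 61 these spans were 0.17, 0.16, 0.22 and 0.19 in the same order. The mouse means of Pde6c spanned 0.25, with mouse 61 lowest and mouse 66 highest, and 0.13 without mouse 66. The median span was 0.26 over the cone genes and 0.21 over all tested genes.

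Over the 10 libraries the cone genes varied together, with a split in the set. These correlations are a description with no p, since the 10 libraries come from 5 mice and share a scaling to the library total. Of the 45 pairs of cone genes, 39 had a Pearson correlation above 0 (86.7%) with a median of 0.46, and the median Spearman correlation was 0.36. Over all pairs of tested genes 54% were above 0 with a median of 0.05. The 6 genes Opn1sw, Opn1mw, Arr3, Gnat2, Gngt2 and Gnb3, grouped after their values were seen, had 15 of 15 pairs above 0 with a median of 0.84 (Spearman 0.73). The closest pairs were Opn1sw with Gngt2 at 0.95 (Spearman 0.85), Gnat2 with Gnb3 at 0.93 (0.88) and Gngt2 with Gnb3 at 0.92 (0.94). The opsins correlated with each other at 0.75 (Spearman 0.79).

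Pde6c stood apart from these 6 genes. Its Pearson correlation with each was below 0, from −0.27 with Arr3 to −0.47 with Gnat2 and Opn1sw, and it was between 0.37 and 0.40 with Pde6h, Cnga3 and Cngb3. Pde6h had a median of 0.55 with the 6 genes, and of 0.37 after median-of-ratios scaling. Over the right minus left differences, which are only 5 points, the median was 0.89 for Pde6h with the 6 genes, 0.80 among the 6 genes and 0.07 for Pde6c with them. The channel genes Cnga3 and Cngb3 correlated with each other at 0.46 and with the 6 genes between 0.05 and 0.40. Leaving out mouse 61 brought the median of the 15 pairs to 0.63, with 15 of 15 still above 0, and that of Pde6c with the 6 genes to −0.02, so the latter relation rests on mouse 61. The median over all 45 pairs was 0.25 without mouse 64 and 0.70 without mouse 66, and 0.47 and 0.43 without mouse 65 and mouse 68.

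**Figure D4:**
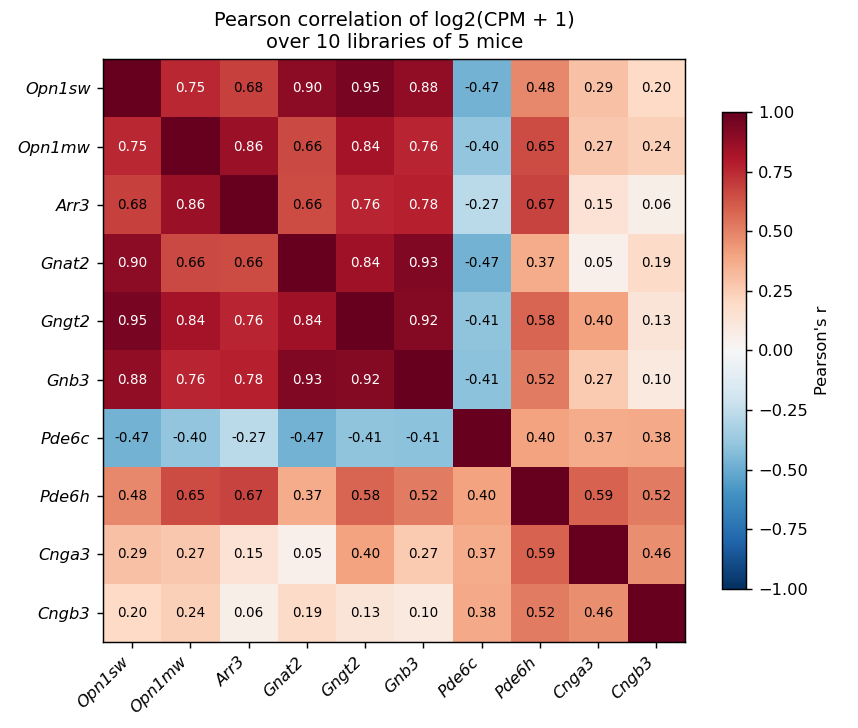
Pearson correlation of log2(CPM + 1) over 10 libraries of 5 mice for each pair of cone genes, from blue (−1) to red (1), with the value in each cell. The 6 genes from Opn1sw to Gnb3 form a block of high values up to 0.95, and the row of Pde6c is below 0 against all 6.

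The 6 co-varying genes, grouped after their values were seen, have shorter gene spans in GENCODE M21 than the other cone genes. The 6 genes span 6.04 to 23.3 kb of the genome, whereas Pde6h, Cnga3, Pde6c and Cngb3 span 45.03, 48.95, 51.2 and 229.8 kb. The RefSeq promoter window of Pde6h ends at chr6:136954522, inside its GENCODE span of chr6:136923832-136968865. From that start Pde6h is much shorter than 45.03 kb, so its place in this split depends on the annotation used. Correlation with the mean of the other 9 cone genes was 0.92 for Gngt2, 0.88 for Gnb3, 0.85 for Opn1sw, 0.82 for Opn1mw and 0.78 for both Gnat2 and Arr3. It was 0.71 for Pde6h, 0.39 for Cnga3, 0.29 for Cngb3 and −0.29 for Pde6c. The GC content of the longest annotated transcript was 46.8% for Gnat2, 56.9% for Gnb3 and 47.4% for Pde6c. The rod counterparts were not ordered by span in this way. With the mean of the cone genes, Pde6g (5.9 kb) correlated at 0.82, Gnat1 (5.2 kb) at 0.17 and Gngt1 (3.6 kb) at −0.32. Sag (41.5 kb) stood at 0.80, Pde6b (44.0 kb) at 0.76 and Cnga1 (40.6 kb) at −0.58. Gnb1 (67.9 kb) stood at 0.40, Cngb1 (67.5 kb) at −0.01 and Pde6a (69.6 kb) at −0.81.

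The mean of the 10 cone genes, each centred on its own average, was highest in the left retina of mouse 61 at 0.19 and lowest in the right retina of mouse 64 at −0.20 on the log2 scale. Quantities of the whole library moved with it. The sum of listed genes, 321661 to 346696 CPM, correlated with it at a Pearson r of 0.83 (Spearman 0.71) over the 10 libraries, and at 0.62 over the 8 libraries without mouse 61. The summed mitochondrially encoded transcripts, 3741 to 5330 CPM, correlated at −0.85 (Spearman −0.89; −0.69 without mouse 61). The mean deviation of the genes with the shortest span, the 2364 genes of up to 9.52 kb, correlated at 0.87 (Spearman 0.77; 0.73 without mouse 61), and that of the 2363 genes with the longest span at 0.38. By GC content, the mean deviation of the 2363 genes of at least 55.3% correlated at 0.72 (Spearman 0.58; 0.57 without mouse 61) and that of the 2364 genes of up to 43.6% at 0.08. Of marker lists, red cell genes (4 of 4 listed, 20.6 to 43.6 CPM on the left and 21.7 to 49.2 CPM on the right, none at 0) correlated at 0.69 and endothelial genes (4 of 4, 68.05 to 80.6 CPM) at −0.62. Rod markers (10 of 10, none at 0) correlated at 0.61 (Spearman 0.70) and the other cone-enriched genes at 0.53. Ganglion cell genes correlated at −0.57, horizontal cell genes at −0.52 and ON bipolar cell genes at −0.49, and the remaining lists between 0.01 for skeletal muscle and 0.44 for Müller glia. The part of these quantities in the common movement of the cone genes was not tested. After rescaling by median-of-ratios factors, the median of the 15 pairs was 0.77 and that of all 45 pairs 0.41.

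**Figure D5:**
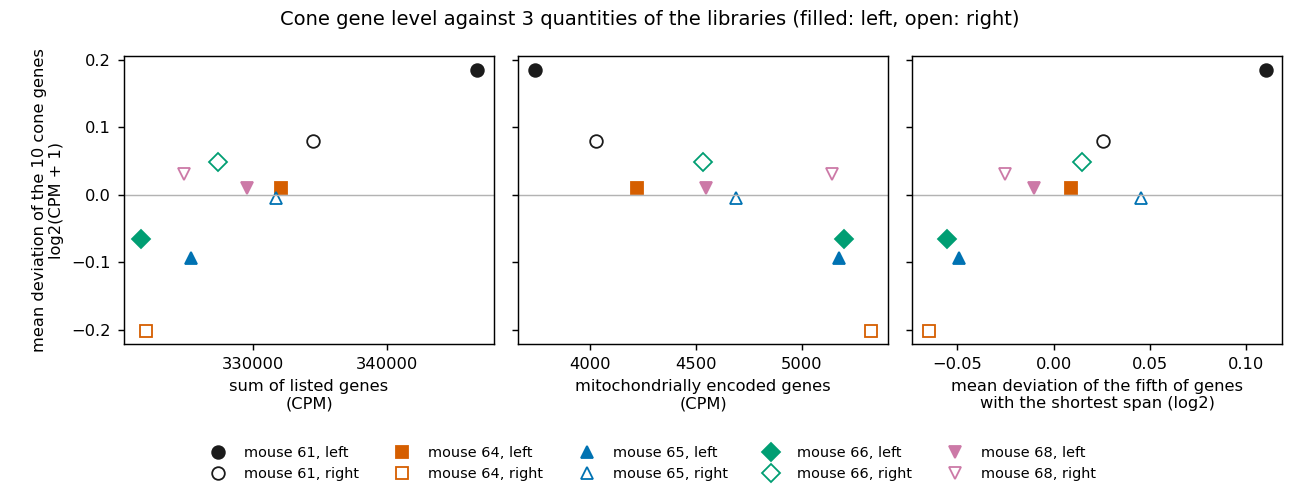
Mean deviation of the 10 cone genes on the log2 scale (vertical axis) against the sum of listed genes, the sum of mitochondrially encoded genes (both in CPM) and the mean deviation of the genes with the shortest span (log2), with a point for each library, filled for left and open for right. The left retina of mouse 61 at 0.19 and the right retina of mouse 64 at −0.20 are the highest and the lowest point in all 3 panels.

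Many genes followed the cone genes over these libraries. Of 14200 other tested genes, 966 (6.80%) had a Pearson correlation of at least 0.8 with the mean of the cone genes and 205 (1.44%) of at most −0.8. The 8 named genes most like them were Ndufs3 and Ndufb4, which encode subunits of respiratory complex I, Rragb, a GTPase of amino acid sensing, Taz, Nt5c3b, Bbs9, a component of the ciliary BBSome, Dph7 and Chpf2, all between 0.96 and 0.98. Ndufs3 ranged from 6.79 CPM in the right retina of mouse 64 to 11.8 CPM in the left retina of mouse 61, the same extremes as the cone mean. Rod genes of the same chain were divided. The rod counterparts Pde6g, Sag and Pde6b correlated with the cone mean at 0.82, 0.80 and 0.76, Gnb1 at 0.40 and Gnat1 at 0.17. Cngb1 stood at −0.01, Gngt1 at −0.32 and Cnga1 at −0.58. Pde6a, the other catalytic rod subunit, stood at −0.81.

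A further list held 22 genes of phototransduction and recovery in rods, cones or both, and all were tested. Of these, 9 were higher and 13 lower on the right, and 0 passed right against left or between mice by limma. Their median right minus left difference was −0.01, beside 0.00 over all tested genes. The lowest unadjusted p-values belonged to Rdh8, a retinol dehydrogenase of the outer segment, Pde6d, a chaperone of prenylated phosphodiesterase subunits, and Kcnv2, a potassium channel subunit of the inner segment. Rdh8 averaged 28.7 ± 2.23 CPM in left and 26.2 ± 2.23 CPM in right retinas (SD, n = 5), lower on the right in 5 of 5 mice by a log2 difference of −0.13 (adjusted p = 0.9996 by limma). Pde6d averaged 5.79 ± 0.48 CPM in left and 6.51 ± 0.91 CPM in right retinas, higher on the right in 3 of 5 mice. Kcnv2 averaged 226.8 ± 11.96 and 219.5 ± 9.23 CPM.

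Of 23 regulators of cone fate and photoreceptor genes, 21 were tested, and Tbx5 at a mean of 0.914 CPM and Dio3 at 0.494 CPM fell under the filter. On the right 10 were higher and 11 lower, and 0 passed. Dio2, the deiodinase that activates thyroid hormone, had the lowest unadjusted p, at 11.3 ± 1.80 CPM in left and 8.84 ± 1.01 CPM in right retinas, lower on the right in 5 of 5 mice (log2 difference −0.32, adjusted p = 0.9996 by limma). Esrrb, an orphan receptor of rods, averaged 73.6 ± 11.9 CPM in left and 80.4 ± 13.8 CPM in right retinas.

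Between mice, 2 of the 21 regulators passed, with 0.57% of all tested genes called. Nr2e3, the nuclear receptor that represses cone genes in rods, stood at 122, 211, 117, 199 and 189 CPM in the left and 105, 197, 132, 178 and 160 CPM in the right retinas of mice 61, 64, 65, 66 and 68. Mice 61 and 65 were low in both eyes, and the mouse means spanned 0.84 on the log2 scale (adjusted p = 0.0043 by limma; 0.0798 without mouse 61). Samd7, a repressor in rods, stood at 47.9, 55.2, 47.9, 41.7 and 56.4 CPM in left and 51.9, 54.8, 49.6, 43.0 and 58.2 CPM in right retinas, lowest in mouse 66. Its mouse means spanned 0.43 (adjusted p = 0.0221 by limma), and it no longer passed without mouse 61, 66 or 68, at adjusted p-values of 0.0681, 0.215 and 0.166. The Pearson correlation with the mean of the cone genes was −0.41 for Nr2e3 and −0.08 for Samd7. It was 0.78 for Thrb, the thyroid hormone receptor of cones, 0.34 for its partner Rxrg, 0.81 for the rod factor Nrl and −0.58 for Crx, the factor of the TAATCC motif. Over the 21 regulators it ran from −0.79 for Neurod1 to 0.81 for Nrl.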

How the data were processed

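Total RNA of 10 mouse retinas was sequenced as strand-specific libraries after ribosomal RNA removal, per the labels' protocols. The submitters' processing notes name STAR, Partek and the build GRCm38 (mm10). How reads were counted, whether by strand, and with which versions and filters is not stated in the sources used here. The deposited values were read as CPM with 0.0001 added to each, which was taken off. This unit comes from the values, because low values are multiples of a step that differs between libraries. Of values up to 20 steps, 90.3% to 91.5% were whole within 0.1, too few to treat them as counts, so no count model was the main test.

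Values were analysed as log2(CPM + 1), computed from the deposited CPM. This scale understates the change of low genes. Genes averaging 1 CPM or more (14210) were fitted with limma 3.58.1 in R 4.3.3 (trend, moderated variance, mouse as block, two-sided, Benjamini-Hochberg over all tested genes, threshold 0.05), a procedure checked on simulated data. The pairing comes from the labels: fellow retinas with a number are from the same mouse. P-values for right against left rest on the spread of the within-mouse differences over these 5 animals. Those between mice set the mouse means against the spread between fellow eyes. Gene lengths and spans come from GENCODE M21 on GRCm38, and promoters from RefSeq. Alternatives were other pseudocounts, filters and scaling, voom on implied counts, no block, other lengths, and leaving out mice. The members, gene lists and alternatives were chosen with earlier results of these data known. Named genes were the cone genes and their rod counterparts, and the 8 named genes most correlated with the mean of the cone genes. From each of the 2 lists, those passing a test and the 3 of lowest p in right minus left were named. Correlations of Thrb, Rxrg, Nrl and Crx were given outside this rule. One rod gene and the 2 ratios to it are not reported here.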

Additional observations from a re-analysis of the deposited data

Results flagged for a closer look

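The values of the 10 cone genes on each side and their within-mouse differences, and the 16 ratios on each side, made 62 sets of 5 values, which were checked by Dixon's criterion (critical value 0.71). In 3 sets a value lay far from the other 4, and chance alone marks about 1 set in 20. In the left retina of mouse 61, Opn1sw stood at 128.3 CPM, against 81.1 to 92.5 CPM in the other left retinas. The ratio of Gnb3 to Gnb1 was 7.79% in the same library, against 6.00% to 6.39% in the other left retinas. The ratio of Gnat2 to Gnb3 was 0.611 in the left retina of mouse 65, against 0.534 to 0.551 in the other left retinas.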

How the results depend on the processing

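With 5 mice and 1 library per retina, differences under about the intervals printed cannot be resolved, and neither strand use in counting nor the lens side is known. The count of cone genes called was 0 of 10 between sides under 13 alternatives and 0 of 10 between mice under 12. The test of ratios could not call any at this number of mice, so its alternatives bear on the sizes only. The pairing is by animal: with no replicate block the test of right against left also called 0. The median pair correlation ran from 0.25 to 0.70 when each mouse was left out.

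Differences near 0 changed sign under some alternatives, and in each case neither value passed its test. Leaving out each mouse in turn gave −0.040 to 0.073 for Opn1sw, −0.078 to 0.067 for Opn1mw, −0.055 to 0.046 for Gnat2, −0.062 to 0.062 for Gngt2, −0.058 to 0.052 for Pde6h and −0.018 to 0.051 for Cngb3. Gngt2 gave −0.00013 with a pseudocount of 5 CPM, −0.0014 after median-of-ratios scaling and −0.0029 with limma-voom. Without mice 65 and 68, Opn1sw gave −0.065, Gngt2 −0.10, Pde6c −0.0015 and Cngb3 −0.00086. Among log2 ratios, leaving out each mouse gave −0.0065 to 0.10 for Opn1sw/Opn1mw, −0.0074 to 0.079 for Opn1mw/Arr3, −0.034 to 0.073 for Gnat2/Gngt2, −0.042 to 0.075 for Pde6c/Pde6h, −0.025 to 0.068 for Gnat2/Gnat1, −0.048 to 0.20 for Gngt2/Gngt1, −0.035 to 0.033 for Pde6h/Pde6g and −0.024 to 0.079 for Cngb3/Cngb1. Without mice 65 and 68, Opn1mw/Arr3 gave −0.037, Gngt2/Gngt1 −0.053 and Pde6h/Pde6g 0.011, and Pde6h/Pde6g gave 0.00015 with 1 CPM added to both values. The cause was not tested.

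The count of genes differing between mice was 81 and ran from 23 without mouse 61 to 93 after median-of-ratios scaling, with 41 without mice 65 and 68. Esrrb passed between mice after that scaling (adjusted p = 0.044 by limma) and without mouse 64 (0.0149), and Samd7 did not pass without mice 65 and 68 (0.162). Length by the shortest principal transcript was chosen after seeing the data.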
